A study of Mus musculus with 8 samples.

Results

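The genes described here are 9 mouse orthologues of human Alzheimer disease genes, namely App, Psen2, Apoe, Bin1, Clu, Picalm, Sorl1, Abca7 and Ptk2b. They were chosen by name from the gene symbols matched to the RefSeq accessions that name each row, and all 9 were found, each as 1 row, among 15978 rows of the authors' deposited table. Earlier results of these data were known when the genes were chosen, and Bin1 was already among the rows of smallest p. The values below are therefore a description of these genes and no test of the list.

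Total brain RNA of 8 male mice, all of SJL/Bl6 background, was sequenced. Of these, 5 were C9-BAC mice, which carried a bacterial artificial chromosome (BAC), a vector for long genomic inserts, holding human C9ORF72 with 500 G4C2 repeats. They were set against 3 wild-type mice of the same sex and background. The labels give no age, brain region, founder line or batch. The p-values set each fold change against its standard error over these samples, whatever their origin. A G4C2 expansion in C9ORF72 is a cause of amyotrophic lateral sclerosis and frontotemporal dementia, which are other diseases than the one these 9 genes are known for.

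The amyloid precursor protein, the product of App, is cut in turn by beta-secretase and by gamma-secretase, of which Psen2 encodes a catalytic subunit, and the product is amyloid-beta, the peptide of Alzheimer plaques. Apolipoprotein E and clusterin are secreted lipid carriers made in the brain largely by astrocytes, and Abca7 is a lipid transporter. Bin1, Picalm and Sorl1 act in endocytosis and the sorting of membrane proteins, APP among them, and Ptk2b is a calcium-responsive tyrosine kinase of neurons. In humans, mutations of APP and PSEN2 cause inherited forms of the disease, and common variants near the other 7 genes are associated with its risk.

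Only one value per gene is used for the whole comparison: the normalized count averaged over the samples (mean count), a log2 fold change (log2FC) with its standard error (SE), and the p-values of the authors' DESeq2 Wald test, unadjusted (raw p) and adjusted. No value per mouse was analysed here, so neither the spread between mice nor an overlap of the genotypes is given for any gene. It is not stated over which genotype the fold change was taken, and each sign is given as deposited, positive or negative. The largest SE in the authors' deposited table was 0.11, and fold changes of this kind can have been pulled toward 0, so that they set no upper limit on a difference. The 95% intervals below are built from these values, so their true coverage is not known. In brain RNA, fewer cells of a type and less RNA per cell cannot be told apart.

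Coding stretches of 3 of the genes are shown, in the GENCODE vM21 transcripts of the GRCm38 build, 5′ to 3′. The App stretch is what amyloid-beta is cut from. It holds the last 99 codons, which encode C99, the membrane fragment that beta-secretase leaves, and the capitals mark the first 42 codons, which encode the longer common form of amyloid-beta (coding bases 1789 to 2085, from a gene on chromosome 16, minus strand). The Picalm and Apoe stretches are the middle 120 coding bases of each gene, both on chromosome 7, and the capitals mark G and C. They are shown because the fold changes of this comparison went with the GC content of transcripts, and these 2 genes had the lowest and the highest transcript GC content of the 9.
App: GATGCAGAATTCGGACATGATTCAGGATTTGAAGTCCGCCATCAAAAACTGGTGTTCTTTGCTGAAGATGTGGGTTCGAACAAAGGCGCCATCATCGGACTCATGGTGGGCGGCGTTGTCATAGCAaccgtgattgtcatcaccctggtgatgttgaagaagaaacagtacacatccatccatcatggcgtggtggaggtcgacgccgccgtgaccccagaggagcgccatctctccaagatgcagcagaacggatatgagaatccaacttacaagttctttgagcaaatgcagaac
Picalm: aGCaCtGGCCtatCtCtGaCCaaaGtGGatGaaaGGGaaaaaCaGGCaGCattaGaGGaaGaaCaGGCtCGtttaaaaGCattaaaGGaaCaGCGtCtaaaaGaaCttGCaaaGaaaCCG
Apoe: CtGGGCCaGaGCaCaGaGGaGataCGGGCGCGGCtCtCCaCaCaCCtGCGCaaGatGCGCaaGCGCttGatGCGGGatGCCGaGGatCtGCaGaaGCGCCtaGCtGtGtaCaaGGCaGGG
The Picalm stretch holds 52 G or C of 120 bases (43.3%) and the Apoe stretch 76 of 120 (63.3%), close to the 43.1% and 62.6% of their whole coding sequences.

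At a DESeq2 adjusted p of 0.05 none of the 9 genes passed in C9-BAC against wild-type brain, and 0% of the 15944 rows with a p did so in the authors' deposited table. At a raw p under 0.05 there was 1 gene of the 9, Bin1, against 1.5% of all rows (239 rows). Since Bin1 was picked with this value known, nothing is read from that count. Fold changes of 7 genes were positive and those of Picalm and Abca7 negative in the authors' deposited table, where 47.5% of all rows were positive. These shares over all rows, 1.5% and 47.5%, stand beside the counts of every list below. The median log2FC was 0.08 over the 9 genes and 0.07 over the 8 without Bin1, against -0.004 over all rows, and the adjusted p from DESeq2 was 0.9997 for each gene.

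**Figure D1:**
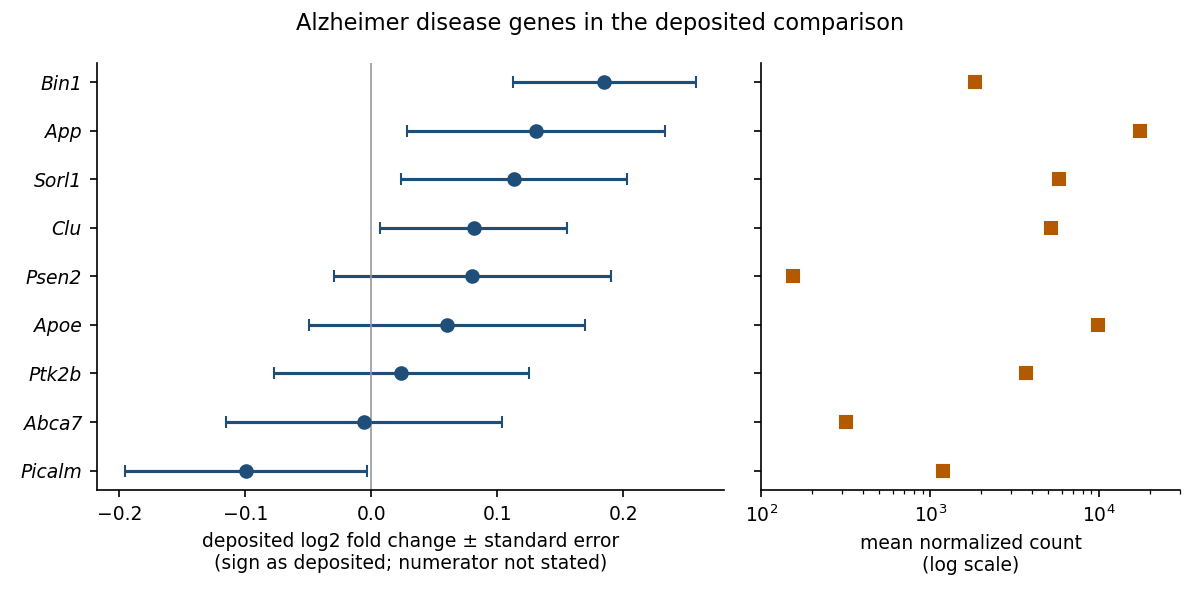
The left panel plots the log2FC of each of the 9 genes as deposited, with bars of 1 standard error, and the right panel its mean count on a log scale. Bin1 lies highest at 0.18 and Picalm lowest at -0.10, and the levels run from 153 for Psen2 to 17476 for App.

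The genes differed widely in level, and 8 of the 9 lay above the median row. App had a mean count of 17476, Apoe 9893, Sorl1 5780.4, Clu 5174, Ptk2b 3672, Bin1 1851, Picalm 1198, Abca7 318 and Psen2 153 in the authors' deposited table, where the median row had 171. Levels of different genes can be compared only per length. Divided by the length of the matched transcripts, Apoe came first with 7026 per kb, followed by App with 5354 and Clu with 2859. Ptk2b (951 per kb), Bin1 (823), Sorl1 (539) and Picalm (342) formed a middle range, and Psen2 (76.7) and Abca7 (48.3) were lowest. No error can be set on these levels, and the length is uncertain for genes with transcripts of several lengths, such as Picalm with 6 accessions in its row.

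**Figure D2:**
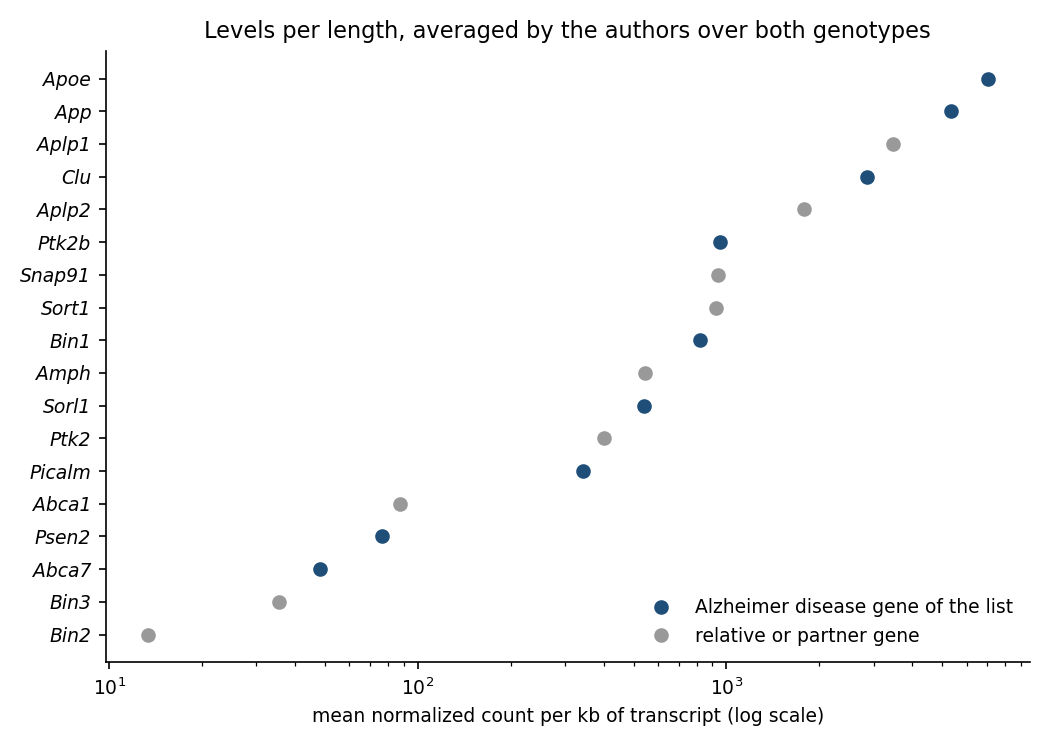
Mean count per kb of transcript, on a log scale, of the 9 Alzheimer disease genes and of 9 relatives or partner genes. Each point is an average the authors made over both genotypes, and Apoe (7026 per kb) and App (5354 per kb) lie above all relatives plotted.

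App encodes the precursor protein from which amyloid-beta is cut. Its row, on chromosome 16 at 84952666 to 85175255 (mm10, as for all positions here), pools 5 transcript accessions and had a log2FC of 0.13 (SE 0.10) in the authors' deposited table (p = 0.201). The 95% interval from this SE ran from -0.07 to 0.33. Gm10791, a row that overlaps App on the opposite strand, had a mean count of 1.61 in the authors' deposited table. The precursor's relatives Aplp1 and Aplp2 encode proteins that lack the amyloid-beta sequence. Their log2FCs in the authors' deposited table were 0.06 (SE 0.09) for Aplp1 and 0.04 (SE 0.08) for Aplp2. Per kb, App (5354) stood 1.54 times above Aplp1 (3471), and Aplp2 (1784) was lower still.

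The wider list of the APP family, its adaptors and other relatives held 13 genes, App among them, and all were in the table. Of these, 12 had positive and 1 negative fold changes, against 47.5% positive over all rows, and none had a raw p under 0.05. The median log2FC was 0.06 against -0.004 over all rows in the authors' deposited table. Apba1, an adaptor that binds the cytoplasmic tail of APP, came next after App by p, with a log2FC of 0.09 (SE 0.10) in the authors' deposited table (p = 0.333). Less the trend with GC content and length, 11 of the 13 were positive.

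Psen2 encodes presenilin 2, a catalytic subunit of gamma-secretase, and lies on chromosome 1 at 180227004 to 180263467. Its log2FC was 0.08 (SE 0.11) in the authors' deposited table (p = 0.467). The 95% interval ran from -0.14 to 0.30, and per kb Psen2 (76.7) was among the 2 lowest of the 9 genes.

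The 12 secretase genes of the list split into 5 positive and 7 negative ones, none at a raw p under 0.05, and their median log2FC was -0.02 in the authors' deposited table. Bace1, the beta-secretase of neurons, had a mean count of 882 and a log2FC of -0.04 (SE 0.08) in the authors' deposited table (p = 0.640). Adam10, an alpha-secretase that cuts APP inside the amyloid-beta sequence, had one of -0.10 (SE 0.11) in the authors' deposited table (p = 0.351). The smallest p of the list was that of Aph1c, a gamma-secretase subunit gene, with a log2FC of -0.14 (SE 0.11) in the authors' deposited table (p = 0.205).

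Apoe, on chromosome 7 at 19696244 to 19701310, encodes the main lipid carrier of the brain. It had a log2FC of 0.06 (SE 0.11) in the authors' deposited table (p = 0.583), and an interval of -0.15 to 0.27. Tomm40, a mitochondrial import pore gene, is the nearest row, 2 bases from Apoe in the annotation and on the same strand. Its log2FC in the authors' deposited table was 0.14 (SE 0.10, p = 0.175). Apoc1, on the other side of Apoe at 3584 bases, had a mean count of only 2.64 in the authors' deposited table.

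Clu encodes clusterin, a secreted chaperone also called apolipoprotein J, and lies on chromosome 14 at 65968483 to 65981548. Its log2FC was 0.08 (SE 0.07) in the authors' deposited table (p = 0.272). That SE was low for the level of Clu, at the percentile 4.76 among the rows of the same twentieth of mean count. Its interval, -0.06 to 0.23, was narrower than that of Apoe.

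Abca7 encodes a lipid transporter of the ABCA family and lies on chromosome 10 at 79996453 to 80015572. Of the 9 genes it had the fold change nearest to 0, with a log2 value of -0.01 (SE 0.11) in the authors' deposited table (p = 0.958, interval -0.22 to 0.21). Abca1, its relative that loads lipid onto apolipoprotein E, had a log2FC of -0.10 (SE 0.11) in the authors' deposited table (p = 0.344). Per kb, Abca7 was at 0.553 of the level of Abca1. The neighbouring genes Cnn2 and Arhgap45 lie within 1099 bases of Abca7, with log2FCs of 0.07 and 0.08 in the authors' deposited table.

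Lists of lipid carriers and transporters were divided in sign. The list of apolipoproteins and lipoprotein receptors had 7 positive and 7 negative members of 14, and ABCA transporters 4 positive and 9 negative of the 13 with a row, with 0 at a raw p under 0.05 in either list in the authors' deposited table. The first list also held genes of other kinds, namely Tomm40, Lcat, Lpl, Abca1 and Abcg1, so its split is not that of the named classes alone. Vldlr, a receptor for apolipoprotein E and reelin, had the smallest p of the first list, with a log2FC of -0.16 (SE 0.10) in the authors' deposited table (p = 0.0929). Lrp1, a large endocytic receptor that also binds APP, was abundant at a mean count of 12768 and had a log2FC of 0.14 (SE 0.11) in the authors' deposited table (p = 0.191). Abca2, the most abundant transporter of its list, had a log2FC of 0.06 (SE 0.11) in the authors' deposited table (p = 0.597).

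Genes that degrade or clear amyloid-beta numbered 13 with a row, 7 positive and 6 negative, against 47.5% positive over all rows. Against 1.5% of all rows, 1 of them (7.7%) had a raw p under 0.05 in the authors' deposited table. This was Plau, the urokinase gene, at a mean count of 33.1 and a log2FC of 0.24 (SE 0.10) in the authors' deposited table (p = 0.0201 and, adjusted by DESeq2, p = 0.9997). The amyloid-beta protease gene Ide had one of -0.02 (SE 0.11) in the authors' deposited table (p = 0.872).

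Bin1 encodes amphiphysin 2, a protein whose BAR domain bends membranes in endocytosis, and lies on chromosome 18 at 32376618 to 32435740. Its log2FC was 0.18 (SE 0.07), or 1.14-fold, in the authors' deposited table (p = 0.0106 and, adjusted by DESeq2, p = 0.9997). The interval ran from 0.04 to 0.33, and 25 rows of the table had a smaller p. Among rows of the same twentieth of mean count, the fold change of Bin1 was at the percentile 99.2 and its SE at 1.38. The other 8 genes had raw p-values of 0.201 to 0.958.

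A second row overlaps the start of Bin1. A830052D11Rik, a long noncoding RNA gene on the opposite strand, shares 1667 bases with it in the annotation and had a mean count of 8.16 and a log2FC of 0.14 (SE 0.07) in the authors' deposited table (p = 0.0604). Rows of very low count have small SEs here, such as 0.04 for Gm10791 at a mean count of 1.61. The SE of A830052D11Rik therefore does not mean that it was measured as well as Bin1. The libraries were strand-specific per the labels, but no source used here says whether the counting used the strand, so reads of the 2 genes in the shared bases may not have been separated. The next rows on either side, Gypc and Ercc3, had log2FCs of 0.08 (SE 0.09) and 0.07 (SE 0.10) in the authors' deposited table.

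Relatives of Bin1 had fold changes of both signs. Amph, the gene of amphiphysin 1, which pairs with the Bin1 product at synapses, had a log2FC of -0.05 (SE 0.10) in the authors' deposited table (p = 0.632). Bin3 had one of 0.16 (SE 0.11) in the authors' deposited table (p = 0.150) and Bin2, a gene of blood cells and microglia, one of -0.01 (SE 0.10) in the authors' deposited table (p = 0.924). Per kb, Bin1 stood 1.51 times above Amph, 23.1 times above Bin3 and 61.7 times above Bin2. Bin1 has neuronal, muscle and ubiquitous splice forms, and its row pools 2 accessions, so the forms cannot be told apart.

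Of the 16 amphiphysin and BAR-domain genes, 7 were positive and 9 negative in the authors' deposited table. Bin1, picked with its value known, was the only one at a raw p under 0.05 (6.25%, against 1.5% of all rows). Pacsin2, which tubulates membranes at caveolae and endocytic sites, came next with a log2FC of -0.18 (SE 0.11) in the authors' deposited table (p = 0.102). Sh3gl2, the gene of the synaptic protein endophilin A1, had one of 0.05 (SE 0.09) in the authors' deposited table (p = 0.559).

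Picalm encodes a clathrin assembly protein and lies on chromosome 7 at 90130192 to 90209447. It had the most negative fold change of the 9, a log2 value of -0.10 (SE 0.10) in the authors' deposited table (p = 0.300), and an interval of -0.29 to 0.09. Its neuronal relative Snap91, also called AP180, had one of -0.02 (SE 0.09) in the authors' deposited table (p = 0.841). Per kb, Picalm was at 0.364 of the level of Snap91. Clathrin, AP2 and endocytic partner genes numbered 28, of which 15 were positive and 13 negative, with none at a raw p under 0.05 in the authors' deposited table. Cltc, the clathrin heavy chain gene, had a log2FC of -0.08 (SE 0.08), and Synj2, a phosphoinositide phosphatase gene, one of 0.17 (SE 0.09) in the authors' deposited table (p = 0.343 and 0.0585).

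Sorl1 encodes SORLA, a sorting receptor that carries APP between the Golgi and endosomes, and lies on chromosome 9 at 41964709 to 42124297. It had a log2FC of 0.11 (SE 0.09) in the authors' deposited table (p = 0.208), and an interval of -0.06 to 0.29. Sort1, the gene of the related receptor sortilin, had one of 0.01 (SE 0.09) in the authors' deposited table (p = 0.876). The 17 genes of the VPS10 receptors and the retromer, the coat that returns receptors from endosomes, had 9 positive and 8 negative members, 0 at a raw p under 0.05, and a median log2FC of 0.004 in the authors' deposited table. Among them Snx3, a retromer adaptor gene, had a log2FC of 0.16 (SE 0.10) in the authors' deposited table (p = 0.0901).

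Ptk2b encodes PYK2, a tyrosine kinase that calcium activates, and lies on chromosome 14 at 66153257 to 66281100. It is 171708 bases from Clu on the same chromosome, and the 2 genes are separate risk loci in human studies. Its log2FC was 0.02 (SE 0.10) in the authors' deposited table (p = 0.814). Ptk2, the gene of focal adhesion kinase, also had a log2 value of 0.02 (SE 0.10) in the authors' deposited table (p = 0.837), and per kb Ptk2b stood 2.37 times above it. Of 16 genes of PYK2, focal adhesion kinase and their partners, 10 were positive and 6 negative and none had a raw p under 0.05 in the authors' deposited table. Ptpn5, the phosphatase STEP that acts on PYK2, had a log2FC of 0.14 (SE 0.11) in the authors' deposited table (p = 0.185), and is named after its value was seen.

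Tau genes and further risk loci also had fold changes of both signs. Tau and its kinases comprised 12 positive and 7 negative genes of 19, none at a raw p under 0.05, with a median log2FC of 0.04 in the authors' deposited table. Mapt, the tau gene, had a log2FC of 0.05 (SE 0.10) in the authors' deposited table (p = 0.613), and Camk2a, a kinase of excitatory synapses, one of 0.17 (SE 0.11, p = 0.113). Other Alzheimer risk loci had 26 positive and 17 negative genes of 43 with a row, with a median log2FC of 0.01 in the authors' deposited table. In that list 1 gene (2.3%) had a raw p under 0.05, against 1.5% of all rows. It was Wwc1, a Hippo pathway scaffold gene also called KIBRA. Its log2FC was 0.30 (SE 0.11) in the authors' deposited table (p = 0.00532 and, adjusted by DESeq2, p = 0.9997). Wwc1 too was known beforehand to be among the smallest p-values.

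**Figure D3:**
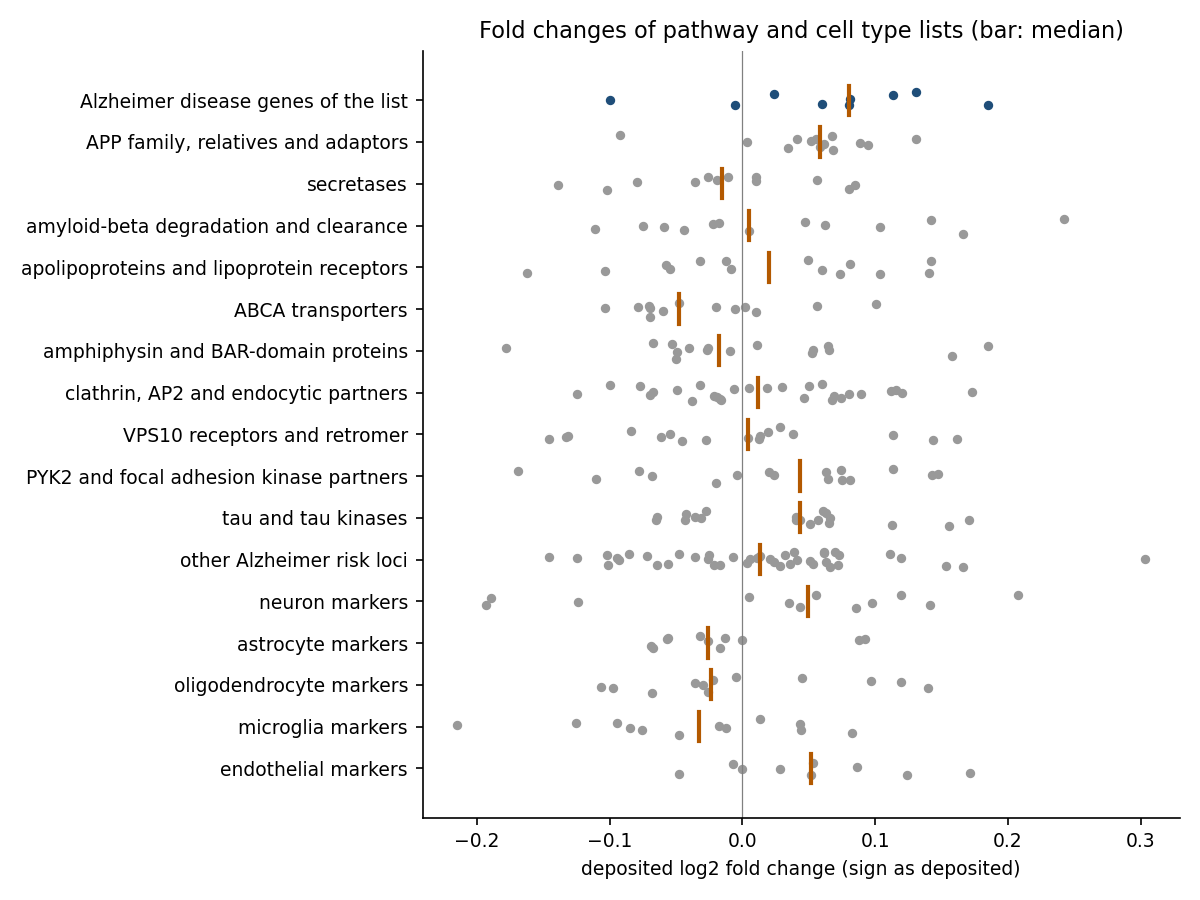
Deposited log2FC of every gene of the 9 Alzheimer disease genes (blue) and of 16 pathway and cell type lists (grey), with the median of each list as a bar. The medians lie between -0.05 for ABCA transporters and 0.08 for the 9 genes, and every list plotted has genes of both signs.

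The cell type markers of brain were all present. All 12 neuron, 11 astrocyte, 12 oligodendrocyte, 12 microglia and 9 endothelial markers reached a mean count of 10 in the authors' deposited table. Fold changes were positive for 9 of 12 neuron markers and 7 of 9 endothelial markers in the authors' deposited table. They were positive for 2 of 11 astrocyte, 4 of 12 oligodendrocyte and 4 of 12 microglia markers, and for 47.5% of all rows. Median log2FCs were 0.05 for neuron, 0.05 for endothelial, -0.03 for astrocyte, -0.02 for oligodendrocyte and -0.03 for microglia markers. Apoe and Clu, which astrocytes express strongly, had positive values and most astrocyte markers negative ones, none of them at a raw p under 0.05. The 2 positive astrocyte markers, Aldh1l1 (55.8% GC) and Fgfr3 (55.9%), had transcript GC contents near that of Clu (55.6%). The 9 negative ones had 41.4% to 53.8%. The part of GC content in these marker signs was not tested. Nor was the part of cell makeup in the values of the 9 Alzheimer disease genes.

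The fold change went with transcript GC content across the table. Over 13627 rows with a mean count of at least 10, which share their libraries and are not independent replicates, Spearman's rho was 0.42 between GC content and the deposited fold change. The share of positive rows was 21.7% in the 20% of rows with the lowest GC content and 69.4% in the 20% with the highest. Among the 9 genes rho was 0.03. Picalm (42.9% GC) lay in the lowest such group, and Apoe (59.5%), Abca7 (58.8%) and Bin1 (57.8%) in the highest. Picalm and Bin1 were also the lowest and the highest of the 9 by fold change. Apoe and Abca7, with more GC than Bin1, had log2FCs of only 0.06 and -0.01.

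Once the trend with GC content and length was taken off, the log2FC of Bin1 was 0.15 against 0.18 as deposited, and that of Picalm -0.05 against -0.10. Those of App (0.12) and Sorl1 (0.12), with GC contents of 51.3% and 50.7% near the median of 50.5%, hardly moved. Apoe was left with 0.02, Clu and Psen2 with 0.05 each, Ptk2b with 0.003 and Abca7 with -0.04. All 9 genes kept their sign, and the median of the list was 0.05 against 0.08 as deposited. What lies behind the trend was not tested.

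**Figure D4:**
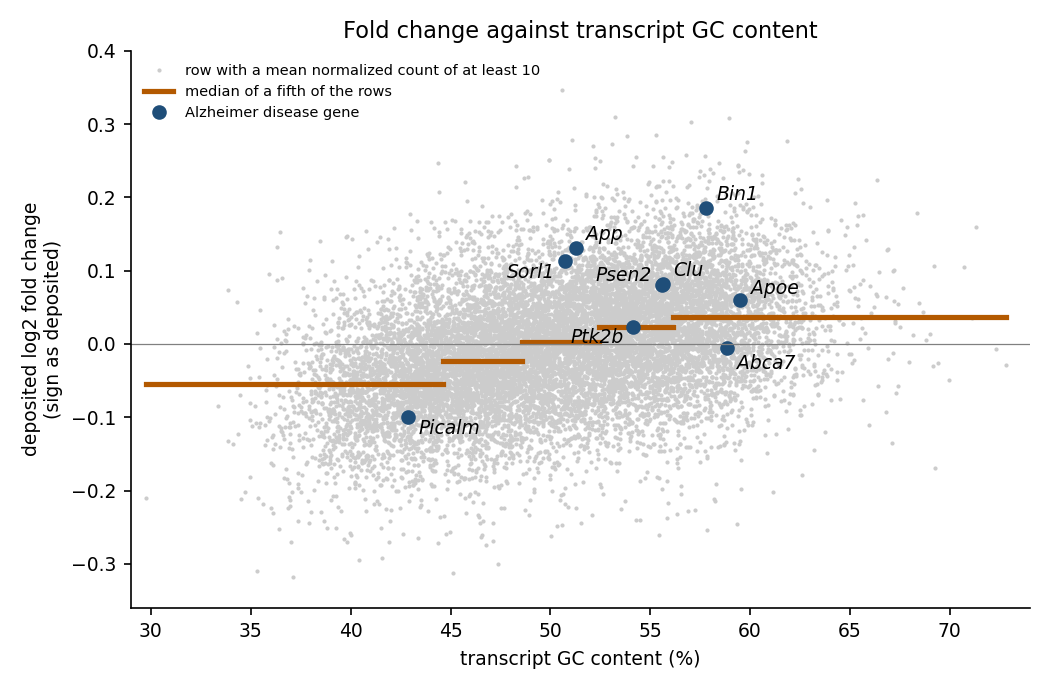
Deposited log2FC against transcript GC content (percent) for rows with a mean count of at least 10 (grey), with the median of each 20% of rows by GC content as a bar and the 9 Alzheimer disease genes in blue. The medians climb from -0.05 to 0.04 with GC content. Picalm and Abca7 lie below the bar of their group, Ptk2b almost on it, and the other genes above it.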

How the data were processed

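Strand-specific libraries from total RNA of 5 C9-BAC and 3 wild-type brains were made without poly(A) selection, per the labels. Trimmomatic, Bowtie2, DESeq and DESeq2 with build mm10 are named per the submitters' processing notes, and no source used here gives the read counter or annotation. The authors' deposited table holds a mean normalized count, a signal averaged over samples, with log2 fold changes and their standard errors on the log2 scale, the Wald statistic (a score), and the p-value and adjusted p-value, per the file headers. Replicates were not given singly, so no fit was made anew and the depth per sample is unknown. Summed over the table, mean normalized counts came to 9226670.

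Symbols came from RefSeq accessions of GRCm38.p6 (the assembly also called mm10) for 15857 rows and from GENCODE vM21 for 73, leaving 48 without one. Transcript GC content and length were medians of the matched vM21 transcripts (15869 rows). The members and the 16 other lists were chosen with earlier results of these data known. Named genes are the 9 members, the relatives and nearest rows set beside them, and in each list those of smallest p (mean normalized count of at least 10) or highest mean normalized count. The trend with GC content and length was a quadratic least-squares fit over the rows at or above the same minimum of 10. It was tested on simulated data. Percentiles within abundance use 20 equal groups of rows. Python 3.11.15, numpy 2.4.6, pandas 2.3.3 and scipy 1.17.1 were used. Alternatives were filters on the mean normalized count, centring, a rescaled statistic and the GC and length trend. Protein alignments of relatives, planned at first, were not run. Some genes that the rule names are left out of the text.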

Additional observations from a re-analysis of the deposited data

How the results depend on the processing

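No paired analysis was possible because no number occurs in both genotypes and the values are given for the whole comparison. Leaving out single mice was not run for the same reason. Across 6 alternatives (a mean normalized count of at least 10 or 100, centring on all rows, an empirical null, the GC content and length trend removed, and both of the last), the 9 genes kept their sign and none was called. Most of these settings could hardly change a sign. The filters leave each fold change as it is, and centring and the empirical null move all rows by the same small amount. Only removal of the trend moved the genes by differing amounts, with the same fold changes in both settings that use it. The adjusted p of Bin1 was lowest, 0.251, with the trend removed and the statistic then rescaled. In that setting alone 5 rows of the whole table were called, against 0 as deposited, and they were Lamp5, Snrpn, 5930438M14Rik, F2rl2 and Mical2, named after their values were seen. The rescaling took off the median of the statistic and divided by 0.69, its spread over rows after the trend was removed, which enlarged the scores. Why the spread had this size was not tested. The other lists were counted only under the filter at 10, the centring and the removal of the trend. Of these 96 counts, 95 stayed within 1.5 times of the main count. The filter and the centring could change few of them, and many counts at a raw p under 0.05 were 0 throughout. The high share is therefore no measure of stability. The 1 that moved was that of microglia markers at a raw p under 0.05, from 1 to 0 with the trend removed.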

Other observations

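Of the 12 neuron markers, 9 had a positive and 3 a negative fold change in the authors' deposited table. Thy1, a surface glycoprotein of projection neurons, had a log2FC of 0.21 (SE 0.09) in the authors' deposited table (p = 0.0179). Gad1 and Gad2, which make GABA in inhibitory neurons, were both at a log2FC of -0.19 (SE 0.10) in the authors' deposited table (p = 0.0694 and 0.0631). A difference between types of neurons was not tested. Map2, a dendritic microtubule protein gene, was the other negative one, with a log2FC of -0.12 (SE 0.09) in the authors' deposited table (p = 0.162). Slc17a7, the vesicular glutamate transporter gene of excitatory neurons, had a log2FC of 0.04 (SE 0.09) in the authors' deposited table (p = 0.619). None of the 12 passed at a DESeq2 adjusted p of 0.05, and Gad1, Map2 and Slc17a7 are named after their values were seen.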
